A study of Mus musculus with 2 samples.

Results

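Cyclins, cyclin-dependent kinases (CDKs), E2F factors and the RB family were described in LSK cells, the marrow cells that lack lineage markers, carry Sca-1 and c-Kit and contain the blood stem cells. The members were all genes whose name on the array matched the cyclin, CDK or E2F series, together with Rb1, Rbl1, Rbl2, Tfdp1, Tfdp2, Cdc2a and the 3 Cdc25 phosphatases; Ccng1 was left out by the rule. This gave 45 genes with 90 probes, of 27743 gene names and 41170 usable probes on the array. The rule reads gene names and no measured value. The study compared PAD4-/- LSK cells with WT LSK cells, both from C57BL/6 marrow and sorted by flow cytometry, on 1 single-colour Agilent array per genotype. PAD4, the product of Padi4, converts arginine in histones and other proteins to citrulline. The part of Padi4 that was deleted, the cells in which it was deleted, the number of mice behind each RNA, and their age and sex are not stated in any source used here.

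A cyclin switches on the CDK it binds, and each pair acts at its own step of the cell cycle. In G1 the D cyclins with CDK4 and CDK6 phosphorylate the RB proteins, which then release E2F factors; E2F with its DP partner drives the genes of DNA replication, among them cyclin E, whose kinase CDK2 starts S phase. Cyclin A acts in S and G2, and cyclin B with CDK1 brings the cell into mitosis. Most blood stem cells rest outside the cycle, whereas the multipotent progenitors of the same sorted population divide often.

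The array contrast can be described but not tested, because there was 1 array per group and no replicate. Values below are the processed signal, the brightness of a spot after background subtraction, and a log2 difference, PAD4-/- minus WT, taken after each array was scaled to its 75th percentile (786 on the PAD4-/- array and 814 on the WT array). The error beside a difference is the scanner error, about 0.20, which follows from the fixed 0.1 proportional term of the scanner's error model and does not cover variation between mice. A gene was measured when a probe was well above background on both arrays, and its brightest such probe gave its value. Probe brightness depends on the probe, so levels are compared between the arrays and not between genes. The probes well above background made up 64.1% of the PAD4-/- array and 63.9% of the WT array. Padi4 had a signal of 2670 on the PAD4-/- array, against 12879 on the WT array, at its brightest probe, a log2 difference of -2.22 (error 0.20), and the other probes gave -2.24 and -2.05. Of the sort markers, Kit had a signal of 9451 on the PAD4-/- array and 9339 on the WT array, and Ly6a, which encodes Sca-1, had 2312 and 2637 in the same order. Other stem and progenitor markers differed more: Flt3, a receptor of multipotent progenitors, had 1481 on the PAD4-/- array against 2439 on the WT array (-0.67), and Slamf1, a marker of stem cells, had 125 against 93.9 (0.47). Markers of committed lineages differed: 7 of 11 measured erythroid markers, 4 of 5 mast cell and basophil markers, 3 of 9 neutrophil markers, 3 of 7 monocyte, macrophage and dendritic cell markers and 5 of 7 B cell markers were at least 1.5-fold higher on the PAD4-/- array, and none of these was 1.5-fold lower. Of 5 measured T and NK cell markers 2 were 1.5-fold higher and 1, Prf1, was lower (-0.60). Of 3 megakaryocyte markers 2 were 1.5-fold higher. The third, Itga2b, was lower short of 1.5-fold, with 1324 on the PAD4-/- array and 1847 on the WT array (-0.43). The erythroid marker Alas2 was also lower short of 1.5-fold, with 136 and 195 in the same order (-0.47). The summed signals of the first 5 lists were 26689, 3675, 179262, 14837 and 12112 on the PAD4-/- array. On the WT array they were 25371, 2075, 121720, 11186 and 8130. Those of the T and NK cell, megakaryocyte and LSK markers were 433, 2374 and 108861 on the PAD4-/- array. On the WT array these were 313, 2453 and 120617. The sums were not scaled. Single bright probes made up most of some: on the PAD4-/- array Car2 gave 21958 of the erythroid sum and Mpo 118188 of the neutrophil sum. The mast cell marker Ms4a2 was at background on the WT array. The sex-linked transcript Xist was well above background on the PAD4-/- array only, and Ddx3y and Eif2s3y were lower there by 1.36 and 1.23. The part of these other differences in the values of the cell cycle genes was not tested. In sorted bulk cells, a change in the share of cycling cells and a change in RNA per cycling cell cannot be told apart.

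Of the 45 members, 43 were measured, and none of the 43 was 1.5-fold different in either direction. Over all 17083 measured genes, 2.86% passed 1.5-fold upward and 1.88% downward. The member values ran from -0.41 (Cdc25c) to 0.49 (Ccne2), with a median of 0.06 and quartiles of -0.04 and 0.12, while all genes had a median of 0.02 and quartiles of -0.12 and 0.15. At a threshold of 1.2-fold, 6 members (14%) were higher, namely Ccne2, Ccnb1, Tfdp1, E2f8, Ccne1 and Rbl1, against 12.3% of all genes. At the same threshold 2 members (4.65%), Cdc25c and Ccnf, were lower, against 11.1% of all genes. The share of higher members thus lay near that of all genes. Among genes with a signal of at least 100 on both arrays, a limit chosen after seeing the data, 6 of 41 members (14.6%) were 1.2-fold higher, against 8.16% of such genes, and 2 members (4.88%) were 1.2-fold lower, against 9.74%. The difference was beyond the scanner error upward in 7 members (16.3%; 16.1% of all genes) and downward in 2 (4.65%; 14.1% of all genes). By sign alone 30 members were above 0 and 13 below, against 9405 of all 17083 genes above 0 and 7678 below. When the arrays were scaled to their medians, 24 members were above 0 and 19 below, and the median was 0.01 for the members and -0.03 for all genes.

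**Figure D1:**
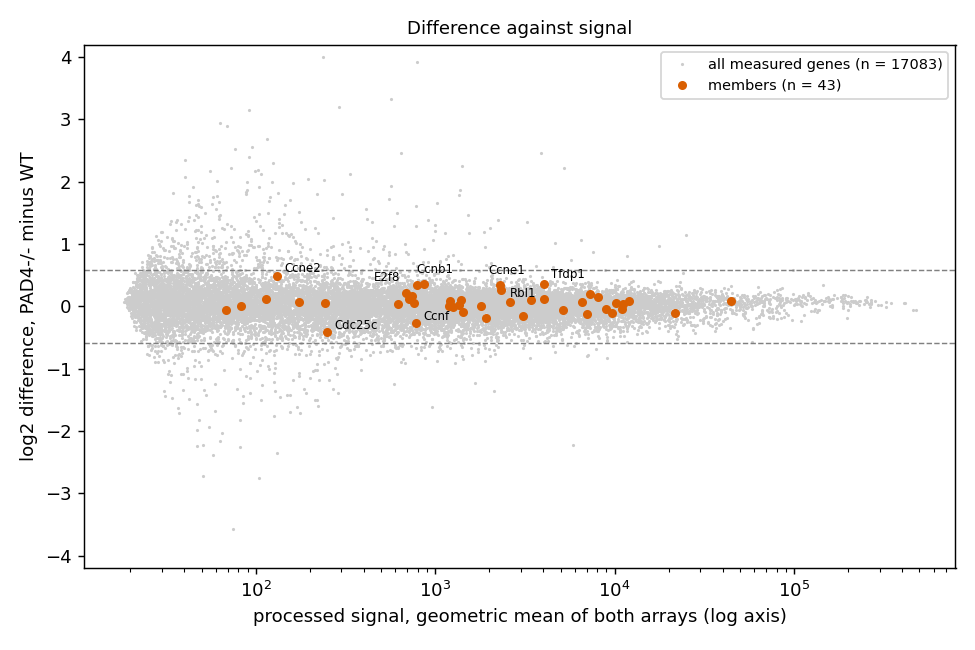
Log2 difference (PAD4-/- minus WT) of each measured gene against its processed signal (geometric mean of both arrays, log axis), with the 43 measured members in orange over all 17083 measured genes in grey; dashed lines mark 1.5-fold. All members lie inside the dashed lines, and the 8 named ones are at least 1.2-fold different.

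The D cyclins and their kinases, which read growth signals in G1, were close in both genotypes. Ccnd1, which encodes cyclin D1, had a signal of 1420 on the PAD4-/- array and 1374 on the WT array. Its probe was printed in 10 spots on each array. They ran from 1318 to 1492 with a median of 1421 on the PAD4-/- array, and from 1335 to 1464 with a median of 1368 on the WT array. The spots of both arrays overlapped, and the log2 difference was 0.10. Ccnd2, for cyclin D2, had signals of 20512, 17605 and 16546 at its 3 probes on the PAD4-/- array, against 22873, 19422 and 17492 on the WT array. All 3 probes were slightly below 0, from -0.11 to -0.03, within the scanner error. Ccnd3, for cyclin D3, had 9140 on the PAD4-/- array and 10151 on the WT array, a difference of -0.10. Of the partner kinases, Cdk4 had signals of 8710 and 9262 (-0.04) and Cdk6 had 45353 and 44199 (0.09), each with the PAD4-/- array first. CDK6 is the kinase known to govern the exit of blood stem cells from rest. The 5 genes had a median of -0.04, none was 1.2-fold different, and the D cyclin values lay on both sides of 0.

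The RB family holds E2F factors in check until the CDKs phosphorylate it. Rb1 had a signal of 1353 on the PAD4-/- array and 1374 on the WT array, averaged over 10 and 9 spots, and the difference after scaling was 0.03. The spots ran from 1272 to 1419 on the PAD4-/- array and from 1273 to 1430 on the WT array, which is nearly the same range. Rbl1, which encodes p107, a family member made mainly in cycling cells, had 2505 on the PAD4-/- array against 2152 on the WT array (mm8 chromosome 2, 156837848 to 156837907). Its difference of 0.27 (error 0.20) is 1.21-fold, and it was below 1.2-fold with normexp (0.25) and median scaling (0.21). Rbl2, which encodes p130, the family member of resting cells, had 617 on the PAD4-/- array and 624 on the WT array at its brightest probe, a difference of 0.03. Its second probe had 269 on the PAD4-/- array against 339 on the WT array, a difference of -0.28, so the probes of Rbl2 did not share a direction.

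Among the E2F factors, E2F1, E2F2 and E2F3 are the activators that RB itself binds. E2f1 was lower on the PAD4-/- array at both of its probes. The brighter one (mm8 chromosome 2, 154251709 to 154251768), a single spot, had 1779 on the PAD4-/- array and 2089 on the WT array, a difference of -0.18, within its error of 0.20. The other was printed in 10 spots, which ran from 609 to 675 with a median of 638 on the PAD4-/- array and from 788 to 872 with a median of 812 on the WT array. These spots did not overlap, and the mean difference was -0.32 (error 0.20), past 1.2-fold. The counts of members use the brighter probe. Spots repeat the measurement of 1 labelled RNA and are not replicates of the genotype. E2f2 had 3498 on the PAD4-/- array and 3364 on the WT array (0.11), and E2f3 had 4166 and 3966 in the same order (0.12), so the values of the activators lay on both sides of 0.

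**Figure D2:**
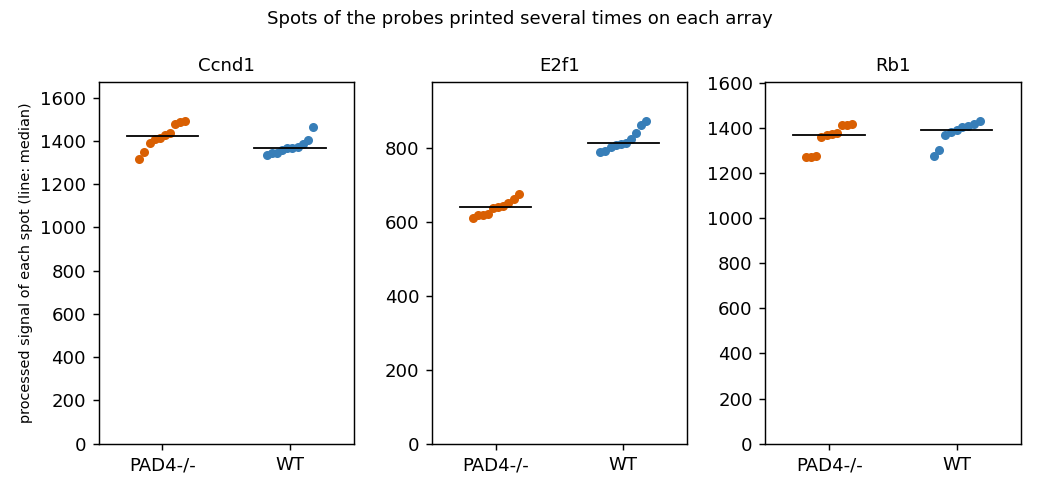
Processed signal of each spot of the 3 member probes that are printed several times, on the PAD4-/- array (left, orange) and the WT array (right, blue), with the median as a line. The E2f1 spots of the PAD4-/- array, at most 675, lie below all spots of the WT array, at least 788, while the Ccnd1 and Rb1 spots overlap.

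E2F4 and E2F5 act with the RB family as repressors in resting cells, and neither differed by more than 0.06. E2f4 had 175 on the PAD4-/- array and 174 on the WT array, and E2f5 had 765 and 762 in the same order. E2f6, a repressor that needs no RB protein, had 6676 on the PAD4-/- array and 6557 on the WT array (0.08). E2F7 and E2F8 are the atypical repressors that cycling cells make late in S phase. E2f7 had 1170 on the PAD4-/- array and 1208 on the WT array (0.00), but 0.39 at a dim probe with signals of 57.3 and 45.3. E2f8 (mm8 chromosome 7, 48734673 to 48734732) had 883 on the PAD4-/- array against 720 on the WT array, a difference of 0.34 (error 0.20), or 1.27-fold. Its second probe gave -0.19, with 114 on the PAD4-/- array and 134 on the WT array, and the mean over both probes was 0.08. The second E2f8 probe is mapped to the plus strand and the brighter one to the minus strand, so it may not read the E2f8 transcript. The value of E2f8 thus rests on 1 probe. Tfdp1, which encodes DP1, the partner that E2F1 to E2F6 need to bind DNA, had 4498 on the PAD4-/- array against 3620 on the WT array (mm8 chromosome 8, 13377768 to 13377827). Its second probe had 4255 and 3519 in the same order, and the differences of 0.36 and 0.32 (1.29-fold at the brighter probe) had the same direction. Tfdp2, for the partner DP2, had 1227 on the PAD4-/- array and 1285 on the WT array (-0.02). Over the 10 E2F and DP genes the median was 0.07, with 2 genes 1.2-fold higher and none 1.2-fold lower, and 0.01 under median scaling.

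The E cyclins, which take the cell from G1 into S phase, were higher on the PAD4-/- array at every measured probe. Both Ccne1 probes are mapped to the same bases and the Ccne2 probes lie close together, so they do not read separate parts of the gene. Ccne2 was dim, with 153 on the PAD4-/- array and 112 on the WT array (mm8 chromosome 4, 11130171 to 11130230), a difference of 0.49 (error 0.22), or 1.41-fold. Its second probe had 94.7 on the PAD4-/- array and 67.6 on the WT array, a difference of 0.54. With normexp background correction, which adds an offset, Ccne2 was at 0.36. Ccne1 had 2525 on the PAD4-/- array against 2066 on the WT array, a difference of 0.34 (error 0.20), or 1.27-fold, and its dimmer probe, with 160 and 129 in the same order, gave 0.36. The kinase of cyclin E did not share this: Cdk2 was dim, with 81.5 on the PAD4-/- array and 84.2 on the WT array (0.00), and a second probe was well above background on the PAD4-/- array only, at 25.5. Cdc25a, the phosphatase that removes the inhibitory phosphate from CDK2, had 734 on the PAD4-/- array and 699 on the WT array, and both of its probes gave 0.12. The 4 genes had a median of 0.23, all above 0, against 0.02 for all genes; under median scaling the median was 0.17 and Cdk2 was below 0. The difference between these genes and the D cyclin group was not tested.

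Promoters of Ccne1 and Cdc25a are shown because these G1/S genes are textbook E2F targets that differ in their letters. Each run is the 250 bases before the gene start on the gene's own strand, from RefSeq on GRCm38.p6, with matches in capitals: TTTCCCGC or TTTGGCGC for E2F, TTTGAA for the CHR element of mitotic genes, and CCAAT, the NF-Y box, each searched on both strands with no overlap between different motifs in the runs shown. The window of Ccne1 is chr7:38107491-38107740 (minus strand) and that of Cdc25a is chr9:109875329-109875578 (plus strand).
Ccne1: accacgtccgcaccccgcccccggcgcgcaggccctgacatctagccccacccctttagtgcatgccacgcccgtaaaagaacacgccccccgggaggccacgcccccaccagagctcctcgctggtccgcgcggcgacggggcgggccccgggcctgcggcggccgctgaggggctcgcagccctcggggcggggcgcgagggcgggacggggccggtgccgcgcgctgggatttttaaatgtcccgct
Cdc25a: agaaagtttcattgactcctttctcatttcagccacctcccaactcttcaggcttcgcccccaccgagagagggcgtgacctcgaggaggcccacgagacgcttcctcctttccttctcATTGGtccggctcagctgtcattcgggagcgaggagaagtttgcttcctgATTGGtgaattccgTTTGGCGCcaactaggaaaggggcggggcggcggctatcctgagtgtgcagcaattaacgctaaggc
Cdc25a held an E2F match whose first base lay at -67 from the start, and Ccne1 held no match of these letters in this window. Promoter sequences were available for 34 members. The 11 members without one, which were not searched, included Ccne2 (0.49) and Cdc25c (-0.41), the highest and lowest members. The E2F letters were in 4 of the 34 searched promoters (11.8%), those of Cdc25a, Cdk2, E2f3 and E2f7, against 1.30% of all 32851 promoters. The log2 differences of these 4 genes were 0.12, 0.00, 0.12 and 0.00, all smaller than the scanner error.

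In S, G2 and M phase the members pointed both ways. Ccna2, for cyclin A2 of S and G2 phase, had 7717 on the PAD4-/- array and 6966 on the WT array, a difference of 0.20, just within its error of 0.20. Ccnb1, for cyclin B1, had signals of 962, 718 and 519 at its 3 probes on the PAD4-/- array, against 772, 627 and 425 on the WT array (brightest probe: mm8 chromosome 13, 101879936 to 101879995). The differences were 0.37, 0.25 and 0.34, so all 3 probes were higher on the PAD4-/- array, by 1.29-fold at the brightest. Ccnb2, for cyclin B2, had 12122 on the PAD4-/- array and 11846 on the WT array (0.08). Cdc2a, the array's name for Cdk1, the kinase of both B cyclins, had 1773 on the PAD4-/- array and 1817 on the WT array (0.01), and its second probe was at background. RefSeq lists pseudogene copies of Ccnb1, Ccnb2, Ccnd3 and Tfdp1, and whether the probes also bind these was not tested.

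Cdc25c and Ccnf were the members lower by 1.2-fold at their brightest probe. Dimmer probes of E2f1 (-0.32) and Rbl2 (-0.28) were also past 1.2-fold. Cdc25c, a phosphatase that activates CDK1 at the entry into mitosis, had 213 on the PAD4-/- array and 294 on the WT array, a difference of -0.41 (error 0.21). Its second probe had 76.4 on the PAD4-/- array and 95.2 on the WT array, a difference of -0.27 in the same direction. Ccnf, for cyclin F, which binds no CDK and directs proteins to a ubiquitin ligase, had 697 on the PAD4-/- array and 871 on the WT array at its only probe (mm8 chromosome 17, 23951452 to 23951511), a difference of -0.27 (error 0.20). It was at -0.26, short of 1.2-fold, when the percentile was taken over detected probes. Cdc25b, the phosphatase of late G2, had 2642 on the PAD4-/- array and 2609 on the WT array (0.07). The 7 measured genes of this phase had a median of 0.07, with 1 gene 1.2-fold higher and 2 lower, and a median of 0.01 under median scaling. Ccna1, the cyclin A of the germ line, was at background on both arrays, as was Ccnb3, a B cyclin of meiosis.

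The promoters of Ccnb1, Ccnb2 and Ccnf are shown because these mitotic cyclins all hold CCAAT boxes, and TTTGAA in Ccnb2 and Ccnf, and had differences of 0.37, 0.08 and -0.27. Capitals mark TTTGAA and CCAAT as above. The windows are chr13:100786487-100786736, chr9:70421555-70421804 and chr17:24251410-24251659, all on the minus strand.
Ccnb1: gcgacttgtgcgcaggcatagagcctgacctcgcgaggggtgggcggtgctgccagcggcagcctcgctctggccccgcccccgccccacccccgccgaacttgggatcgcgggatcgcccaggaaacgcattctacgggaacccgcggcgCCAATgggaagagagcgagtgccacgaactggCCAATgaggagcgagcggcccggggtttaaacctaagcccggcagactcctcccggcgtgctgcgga
Ccnb2: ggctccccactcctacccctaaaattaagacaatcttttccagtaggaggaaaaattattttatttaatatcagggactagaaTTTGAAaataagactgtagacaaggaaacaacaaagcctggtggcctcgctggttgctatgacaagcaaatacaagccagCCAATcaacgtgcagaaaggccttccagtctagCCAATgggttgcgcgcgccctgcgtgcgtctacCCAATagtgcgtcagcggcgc
Ccnf: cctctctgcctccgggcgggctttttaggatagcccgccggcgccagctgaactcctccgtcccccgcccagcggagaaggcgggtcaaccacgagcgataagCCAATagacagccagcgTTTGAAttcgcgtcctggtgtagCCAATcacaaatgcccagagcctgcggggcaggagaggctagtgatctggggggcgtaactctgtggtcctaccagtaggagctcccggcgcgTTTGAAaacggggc
Ccnb1 held CCAAT at -99 and -67, Ccnb2 at -87, -54 and -21, and Ccnf at -147 and -107. TTTGAA lay at -167 in Ccnb2 and at -130 and -14 in Ccnf. Among the 34 member promoters 18 (52.9%) held CCAAT and 7 (20.6%) held TTTGAA, against 33.8% and 16.0% of all promoters. A match describes letters and does not show that a factor binds there.

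**Figure D3:**
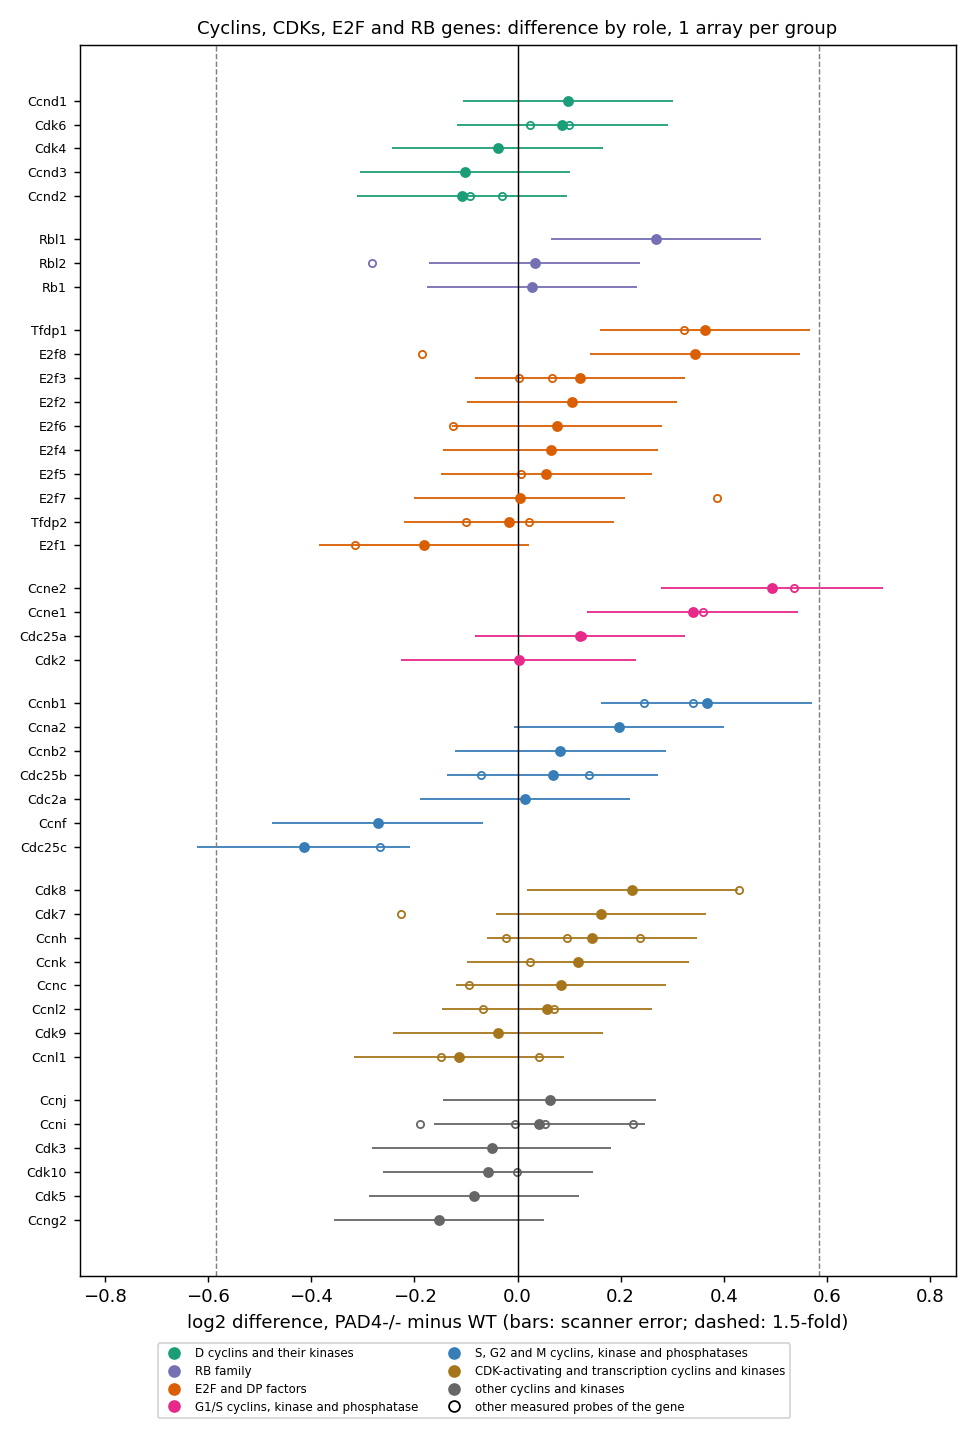
Log2 difference (PAD4-/- minus WT) of the 43 measured members by role, with the brightest probe as a filled point, its scanner error as a bar, the other measured probes as open points, and 1.5-fold as dashed lines. Both E cyclins, Ccnb1 and Tfdp1 lie above 0 at all of their measured probes and Cdc25c below 0, while the probes of E2f8 and Rbl2 lie on both sides. The open point of E2f8 is a probe mapped to the opposite strand.

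Several cyclins and CDKs act in transcription more than in the cycle. Cyclin H with CDK7 forms the kinase that activates other CDKs and RNA polymerase: Ccnh had 8367 on the PAD4-/- array and 7837 on the WT array (0.14), and Cdk7 had 768 and 710 in the same order (0.16). The second measured probe of Cdk7 gave -0.23, with 91.5 on the PAD4-/- array and 110.8 on the WT array. Cyclin C with CDK8 belongs to the Mediator complex: Ccnc had 1224 on the PAD4-/- array and 1195 on the WT array (0.08). Cdk8 had 734 on the PAD4-/- array and 651 on the WT array, or 0.22 (error 0.20), and 317 and 244 at another probe (0.43), so both probes were above 0. Ccnk, the cyclin of the elongation kinases CDK12 and CDK13, had 117 on the PAD4-/- array and 111 on the WT array (0.12). The 8 measured genes of this set, with Cdk9, Ccnl1 and Ccnl2, ran from -0.11 to 0.22 with a median of 0.10.

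Of the remaining members, Ccng2, for cyclin G2, which is linked to cell cycle arrest, had 2861 on the PAD4-/- array and 3292 on the WT array (-0.15). Cdk5, a kinase best known from neurons, had 1369 on the PAD4-/- array and 1503 on the WT array (-0.09). The 6 measured genes of this set, with Ccni, Ccnj, Cdk3 and Cdk10, ran from -0.15 to 0.06 with a median of -0.05. Among the members with 2 or more measured probes, all probes of 15 of 26 had the same sign, against 3470 of 5856 genes over the whole array. The range between the probes of a member had a median of 0.14. The widest range, 0.53 in E2f8, is larger than any member difference, but it includes a probe mapped to the opposite strand. Probes mapped to the opposite strand are also counted here for Ccnh and Ccni.

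Other cell cycle genes were taken from lists that do not overlap the members. Of 25 measured DNA replication and S phase genes that E2F drives, 16 were above 0 and 9 below, with a median of 0.07, and none was 1.5-fold different; over all genes 9405 of 17083 were above 0, with a median of 0.02. Rrm2, a subunit of ribonucleotide reductase, was the highest, with 1303 on the PAD4-/- array and 1009 on the WT array (0.42). Mcm5, a subunit of the replicative helicase, was the lowest, with 18695 on the PAD4-/- array and 24291 on the WT array (-0.33). The other subunits of its MCM ring lay closer to 0, from -0.09 (Mcm7) to 0.08 (Mcm4), while the further helicase components Gins1 and Cdc45l were at 0.23 and -0.10.

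Of 22 mitosis genes, 18 were above 0, with a median of 0.08, against 9405 of all 17083 genes above 0 and a median of 0.02. Ube2c, an enzyme that marks cyclin B for destruction, was the highest, with 3948 on the PAD4-/- array and 3158 on the WT array (0.37). Foxm1, a transcription factor of the mitotic genes, was the lowest, with 1005 on the PAD4-/- array and 1241 on the WT array (-0.25). Of 16 measured partners and regulators of the CDKs, 14 were above 0, again beside 9405 of all 17083 genes. Their median was 0.14, and none was 1.5-fold different. Skp2, which directs the inhibitor p27 to destruction, was the highest at 0.38, with 325 on the PAD4-/- array and 259 on the WT array, and Fzr1, an activator of the ubiquitin ligase of G1, was the lowest at -0.18. When the arrays were scaled to their medians, the medians of these 3 lists were 0.02, 0.03 and 0.08, against -0.03 for all genes. Of the 6 measured CDK inhibitors, 1 was 1.5-fold lower: Cdkn1a, which encodes p21, had 4308 on the PAD4-/- array and 6826 on the WT array (-0.61, error 0.20). The other 5 lay between -0.06 (Cdkn1b, for p27) and 0.19 (Cdkn2c), and Cdkn2a and Cdkn2b were at background on both arrays.

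**Figure D4:**
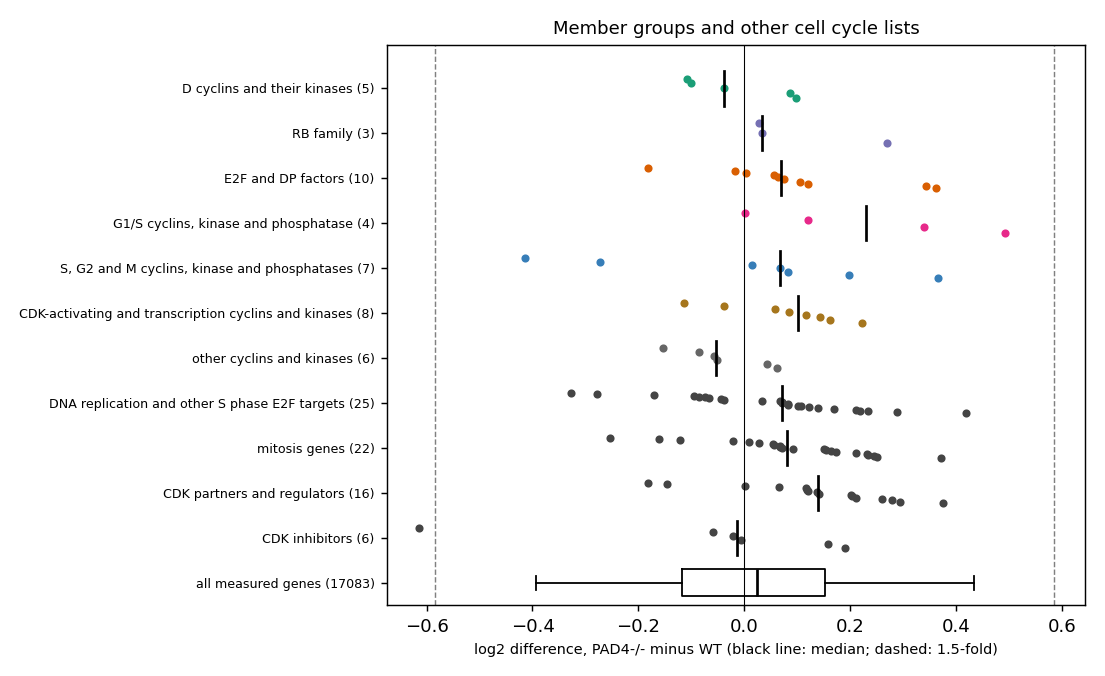
Log2 difference (PAD4-/- minus WT) of each gene in the member groups (coloured) and in the other cell cycle lists (dark), with the number measured in brackets, the median as a black line, all measured genes as a box (quartiles, whiskers at the 5th and 95th percentile) and 1.5-fold as dashed lines. Medians run from -0.05 to 0.23, and 1 gene, the CDK inhibitor Cdkn1a at -0.61, lies past 1.5-fold.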

How the data were processed

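Per the file headers, both arrays were of Agilent design 014868 with mm8 probe coordinates, shared a slide and a scan, and were read with Feature Extraction 9.5.3.1 (version 9.5 in the submitters' processing notes). The deposited scanner files give spot intensity, background-subtracted and detrended by the authors' scanner software. The authors' deposited value table holds log2 values; each column equalled the log2 median signal of a probe minus a constant, 9.62 for PAD4-/- and 9.67 for WT, for all 41174 probes, and the column medians were -3.53 and -3.59. Scale, centring and direction were thus settled. Control and outlier-flagged spots were left out, which removed 4 probes. Log2 signals were averaged over spots and the 75th percentile of each array was subtracted. Genes were joined by the array's gene name.

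With 1 array per group no test was possible, and a 1.5-fold threshold was used. The alternatives were other background corrections, scalings, probe rules, filters, gene names and folds. The rule for the members and the lists were chosen with earlier results of these data known, although the rule reads gene names only. All members of the G1, S, G2 and M groups were named, with examples of the others and the extremes of each pathway list. Spot averaging and percentile scaling were tested on a copy of the WT array with known folds and small noise. The brightest probe was used there too, but all probes of a gene had the same fold, so the choice of probe was not tested. The filter on both arrays, the alternatives and the promoter search were not tested in this way. Python 3.11.15, numpy 2.4.6, pandas 2.3.3 and statsmodels 0.14.6 were used, and normexp ran in limma 3.58.1 under R 4.3.3.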

Additional observations from a re-analysis of the deposited data

How the results depend on the processing

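No paired analysis was possible because PAD4-/- and WT were each hybridised to 1 array, so no array could be left out either. No member was 1.5-fold different under any alternative except with no filter on signal, where 1 was higher, Ccna1, which is at background on both arrays. At 1.2-fold 6 members were higher and 2 lower, and at 2-fold none. The 1.2-fold difference of Rbl1 was lost with normexp (0.25) and median scaling (0.21), and that of Ccnf with the percentile over detected probes (-0.26). Over all genes the counts of 489 higher and 321 lower became 204 and 132 with normexp, 963 and 628 where 1 array above background sufficed, 2314 and 1408 without a filter, 153 and 150 with a signal of at least 100 (chosen after seeing the data), 172 and 81 at 2-fold, and 2100 and 1896 at 1.2-fold. Median scaling gave 426 and 420, a share of higher genes of 50.4% in place of 60.4%. Looser filters add dim probes and other folds move the threshold; for normexp the cause was not tested. Of the members 33 kept their sign in all 11 alternatives and 10 did not (Ccnc, Ccni, Cdc2a, Cdk2, Cdk3, Cdk7, E2f6, E2f7, Rb1 and Rbl2). Averaging probes put E2f8 at 0.08, below 1.2-fold, and Cdk8 at 0.33, above it. The E2f8 average includes the probe mapped to the opposite strand. Low signal limits Ccne2, Ccnk, Cdk2, Cdk3 and E2f4, which are dim. Cdc25c, with 213 on the PAD4-/- array and 294 on the WT array, and Ccnj, with 244 and 242, were only somewhat brighter.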

Other observations

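A probe that the array names C230069N13 and that RefSeq assigns to Cdk7 was well above background on the WT array only. Its signal was 3.73 on the PAD4-/- array and 50.3 on the WT array, at least 2.62-fold higher in WT, where the bound uses the lowest signal well above background on the PAD4-/- array. The 2 Cdk7 probes under that name gave 0.16 and -0.23. This probe was dim, so low signal limits its value too. It stands outside the rule on gene names and was singled out after its values were seen.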
